A study of Homo sapiens with 8 samples.

Results

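OPRK1, CCN3, CAMK2N1, BCHE, MET, PLA2G2A and DDC are 7 genes known to be lowered by androgen in prostate cells, taken here without the UGT2B genes of androgen glucuronidation. Their chromatin was described by the mTOR peaks that the deposited annotation assigns to them within 100 kb of a transcription start site (TSS). By this rule 77 of the 125713 peaks on chromosomes 1 to 22, X and Y in the 4 deposited lists belong to them, and each of the 7 genes had a peak in at least 1 list. The members are 7 of 20037 protein-coding genes of a RefSeq table.

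Androgens raise the transcription of many prostate genes and lower that of others, where corepressors are recruited or other factors are displaced. FoxA1 is a pioneer factor that opens chromatin for other transcription factors in prostate cells. mTOR is a kinase best known at the lysosome, where it couples nutrients and growth factors to protein and lipid synthesis; it has also been found in the nucleus and on chromatin.

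An antibody against mTOR was used to pull down chromatin of LNCaP, an established human prostate cancer cell line that responds to androgen, and the recovered DNA was sequenced as paired-end 150 bp reads (ChIP-seq). The 4 groups were a hairpin against FoxA1 (shFoxA1) with the synthetic androgen R1881, shFoxA1 with the vehicle ethanol (EtOH), the empty hairpin vector (shEV) with R1881, and shEV with EtOH. All cells first spent 48 h deprived of androgen, in 2% serum stripped of steroids with charcoal, and were then given 10 nM R1881 or 0.1% EtOH for 24 h. Each group is 1 library, so no difference has a replicate check and no p-value is given. The 4 input libraries were not analysed here. The lists held 39570 peaks for shFoxA1 R1881, 35121 for shFoxA1 EtOH, 26074 for shEV R1881 and 24948 for shEV EtOH; the read depth of the libraries is unknown, so list length cannot be set against it. These are binding data: neither the transcripts of the 7 genes, nor the level of FoxA1, nor the identity of the cells is measured by them.

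The genome under the peaks was not used here, so the only sequences shown are the matches found in the RefSeq promoters (GRCh38.p14, 250 bases before to 50 after a start) of the members. The table holds 7 such promoters of 4 of the genes, BCHE, DDC, MET and PLA2G2A. These were searched on both strands for the forkhead words TGTTTAC and TGTTTGC, for the hexamer AGAACA of the androgen response element and for the full element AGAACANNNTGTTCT, which contains the hexamer. Only PLA2G2A held a match. The capitals mark the matched letters, and the sequences are shown because they are the only letters of these words in the 7 promoters.
PLA2G2A, hexamer, minus strand of chr1:19979611-19979638: agcaggagtgcAGAACAaacaagacggc
PLA2G2A, forkhead word, minus strand of chr1:19980506-19980534: gtatcgcagagTGTTTACttaaggcggtg
The first begins 9 bases before a PLA2G2A start and 32 bases after the neighbouring one, and the second 89 bases before a more distal start. Of all 35116 promoters in the table, 14.8% held the hexamer, 3.42% TGTTTAC, 3.89% TGTTTGC and 0.00285% the full element. No peak of any list lay on these promoters. No promoter of OPRK1, CCN3 or CAMK2N1 was among them, and CCN3 and CAMK2N1 each had a promoter peak in shFoxA1 EtOH. The nearest peaks stood 33.4, 33.3, 33.3 and 33.5 kb from the forkhead-word promoter of PLA2G2A in shFoxA1 R1881, shFoxA1 EtOH, shEV R1881 and shEV EtOH. The smallest gap between a peak and one of the 7 promoters was 1.96 kb, at BCHE in shFoxA1 EtOH.

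Peaks at the 7 genes were spread unevenly. The shFoxA1 R1881 list had 18 of them at 6 genes, shFoxA1 EtOH 25 at 7 genes, shEV R1881 16 at 5 genes and shEV EtOH 18 at 6 genes. Over all protein-coding genes 54.4%, 51.7%, 40.6% and 39.8% had a peak within 100 kb in these 4 lists, with a mean of 1.15, 1.005, 0.723 and 0.678 peaks per gene. The members averaged 2.57, 3.57, 2.29 and 2.57 peaks, with medians of 2, 2, 1 and 1. The genes were chosen with results of these lists known, so the excess is a description. Most of it lay at OPRK1 and BCHE, while CAMK2N1 and CCN3 each lacked peaks in at least 1 list.

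**Figure D1:**
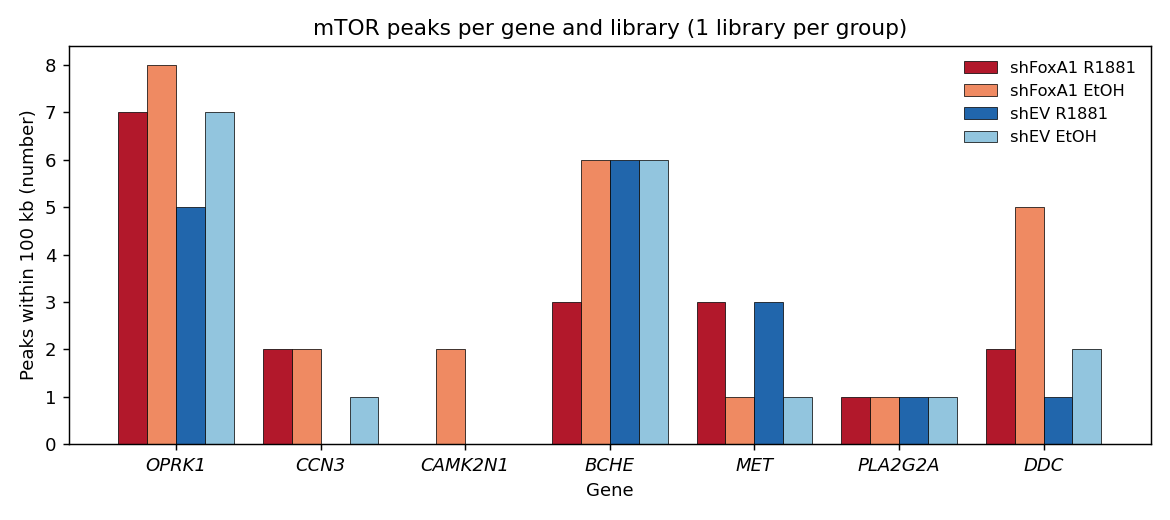
Number of mTOR peaks within 100 kb of the TSS (vertical axis) for each of the 7 genes (horizontal axis) and each library (colours); each bar is 1 library, without error. OPRK1 carried 5 to 8 peaks in every list and BCHE 3 to 6, while CAMK2N1 had 2 peaks in shFoxA1 EtOH and 0 in the other lists.

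The surface receptors on the list are OPRK1 and MET. OPRK1 encodes the kappa opioid receptor, a G protein-coupled receptor for dynorphins. It lies on chromosome 8 at 53225724 to 53251637 (hg38) and had 7 peaks in shFoxA1 R1881, 8 in shFoxA1 EtOH, 5 in shEV R1881 and 7 in shEV EtOH. Only 259, 105, 347 and 57 of the 20037 coding genes had at least as many in those lists. Its peaks fell into 10 regions, 5 on either side of the TSS.

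The OPRK1 region with the highest score in every list lay upstream, at -21.1 kb, in sequence of an endogenous retrovirus (LTR10B1 and HERVIP10B3). It had deposited peak scores of 452 in shFoxA1 R1881, 415 in shFoxA1 EtOH, 300 in shEV R1881 and 191 in shEV EtOH. The score is the authors' own value for the strength of a peak; no source used here defines it, and it is read only within its list. By percentile of score within each list the region stood at 96.3, 95.4, 93.4 and 87.2, among the upper peaks everywhere.

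The other OPRK1 regions common to the 4 lists had lower ranks. The region nearest to the TSS, at 0.654 kb (53250624 to 53251831), was annotated to exon 2 of 4 in every list but shFoxA1 EtOH, whose wider peak was annotated to a CpG island in intron 1 of 3. It had scores of 34 and 123 in shFoxA1 R1881 and shFoxA1 EtOH, and of 50 and 67 in shEV R1881 and shEV EtOH. A retroviral LTR10B repeat 74.0 kb downstream had 34 and 113 with the FoxA1 hairpin and 42 and 136 with the empty vector, in the same order. At this repeat the percentiles were 19.2 and 74.0 with the FoxA1 hairpin and 28.9 and 80.2 with the empty vector. In each hairpin the R1881 list ranked these regions lower than its EtOH list did. With 1 library per group, an undefined score and lists of unequal length, this rank difference cannot be read as a change.

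OPRK1 also had a region in both EtOH lists and in neither R1881 list. It is an L1PA4 repeat at -5.15 kb (53256630 to 53257056), scored 27 in shFoxA1 EtOH and 20 in shEV EtOH, near the bottom of both lists (percentiles 10.1 and 4.37). A PABL_A retroviral repeat 97.8 kb upstream was present in shFoxA1 R1881 (102), shEV R1881 (95) and shEV EtOH (20), and an L1PA3 repeat 90.7 kb upstream in every list but shEV EtOH. An LTR26 repeat 38.9 kb upstream was present in every list but shEV R1881. The peak in the 3' UTR, exon 4 of 4, was called in shFoxA1 R1881 (41) and shEV EtOH (42) only.

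MET, the receptor tyrosine kinase for hepatocyte growth factor, was the member with more peaks in the R1881 lists. It had 3 peaks in shFoxA1 R1881 against 1 in shFoxA1 EtOH, and 3 in shEV R1881 against 1 in shEV EtOH. All lay inside the gene, on chromosome 7, and all in young L1 repeats. The L1PA7 repeat in intron 5 of 20, 79.0 kb from the TSS (116750961 to 116751374), had a score of 65 in shFoxA1 R1881 and 58 in shEV R1881 and no peak in either EtOH list; it is 1 of the 34 member regions with that pattern (2.94%, against 5.27% of all regions of the series). The L1PA5 repeat of the same intron, 73.3 kb from the TSS, had 74 in shFoxA1 R1881, 66 in shFoxA1 EtOH and 67 in shEV R1881, and it lacked a peak in shEV EtOH. The L1PA2 repeat in intron 2 of 20 had 65 in shFoxA1 R1881, none in shFoxA1 EtOH, 76 in shEV R1881 and 50 in shEV EtOH. These scores stood between percentiles 38.4 and 59.7, in the middle of their lists, and no MET peak lay within 10 kb of the TSS. Counting peaks of any gene name within 100 kb of the RefSeq start gave 4 in shFoxA1 R1881 against 2 in shFoxA1 EtOH, and 5 in shEV R1881 against 2 in shEV EtOH; the added ones were assigned to the noncoding LINC01510.

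The secreted proteins of the list are CCN3, BCHE and PLA2G2A. BCHE encodes butyrylcholinesterase, a plasma enzyme that hydrolyses choline esters. It had 3 peaks in shFoxA1 R1881, 6 in shFoxA1 EtOH, 6 in shEV R1881 and 6 in shEV EtOH, in 8 regions that were all annotated to repeats. In all 4 lists peaks lay on the L1PA5, L1PA7 and L1PA6 repeats at -64.3, -77.8 and -97.8 kb. The L1PA6 region (chromosome 3, 165934965 to 165935523) scored 132, 322, 191 and 180 in shFoxA1 R1881, shFoxA1 EtOH, shEV R1881 and shEV EtOH, the highest BCHE score of each list and above its 80th percentile. The L1PA7 region had 122, 84, 76 and 50, and the L1PA5 region 49, 103, 50 and 34.

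An LTR1E repeat 85.7 kb downstream of the BCHE start, past the end of the gene (165751407 to 165752012), had a peak in both EtOH lists, with 166 in shFoxA1 EtOH and 67 in shEV EtOH, and in neither R1881 list. It and the OPRK1 L1PA4 repeat were the 2 member regions with that pattern (5.88% of the 34 regions, against 3.21% of all regions of the series). The peak closest to the BCHE TSS, at -2.37 kb, was called in shFoxA1 EtOH only and with a score of 27.

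PLA2G2A, which encodes a secreted phospholipase that releases fatty acids from membranes, had the same count throughout. It carried 1 peak in each list, at the same L1M1 repeat at -33.9 kb (chromosome 1, 20013995 to 20014663). In RefSeq this region lies 13.7 kb from the edge of PLA2G5, nearer than to PLA2G2A, and its assignment to PLA2G2A is that of the deposited annotation. The scores were 411 in shFoxA1 R1881, 335 in shFoxA1 EtOH, 125 in shEV R1881 and 180 in shEV EtOH, at percentiles 95.7, 93.7, 78.4 and 86.1. In all, 968 other coding genes had the same counts of 1 peak in every list.

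CCN3, a matricellular protein of the CCN family, had 2 peaks in shFoxA1 R1881, 2 in shFoxA1 EtOH, 0 in shEV R1881 and 1 in shEV EtOH. An L1PA5 repeat at -5.66 kb was called in shFoxA1 R1881 (112) and shEV EtOH (42). A GC-rich promoter peak centred 86 bp upstream of the TSS, with 62.0% G and C, was called in shFoxA1 EtOH only (42), as was an L1PA3 repeat 40.3 kb downstream (21). The other shFoxA1 R1881 peak lay in an L1PA13 repeat 51.7 kb downstream (41).

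CAMK2N1 and DDC act inside the cell. CAMK2N1 encodes an inhibitor of calcium/calmodulin-dependent kinase II. It had a peak over its promoter (chromosome 1, 20485832 to 20486879, 71.1% G and C, score 21) and another 5.04 kb downstream (27), both in shFoxA1 EtOH and in no other list. Both stood at or below percentile 10.1 of that list, close to the lowest score it holds, 15.

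DDC encodes aromatic L-amino acid decarboxylase, which makes dopamine and serotonin from their precursors. It had 2 peaks in shFoxA1 R1881, 5 in shFoxA1 EtOH, 1 in shEV R1881 and 2 in shEV EtOH. The region at -18.1 kb, in a MER11B retroviral repeat of the ERVK family (chromosome 7, 50582927 to 50584007), carried the highest scores of all 7 genes in every list. They were 1096 in shFoxA1 R1881, 1022 in shFoxA1 EtOH, 490 in shEV R1881 and 840 in shEV EtOH, which is the top 0.948%, 1.11%, 3.24% and 1.37% of those lists. A region without a repeat at -19.9 kb was called in both shFoxA1 lists (65 with R1881, 27 with EtOH) and in neither shEV list, a pattern of 1 of the 34 member regions (2.94%, against 6.91% of all regions). L1PA4 repeats at -7.10 and -11.2 kb were called in shFoxA1 EtOH only. Peaks at -35.5 kb in shEV EtOH and at -69.0 kb in shFoxA1 EtOH lay in introns 16 and 6 of 17 of GRB10, the neighbouring gene, whose adaptor protein is known as a substrate of mTOR complex 1. No peak assigned to DDC lay downstream of its TSS.

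**Figure D2:**
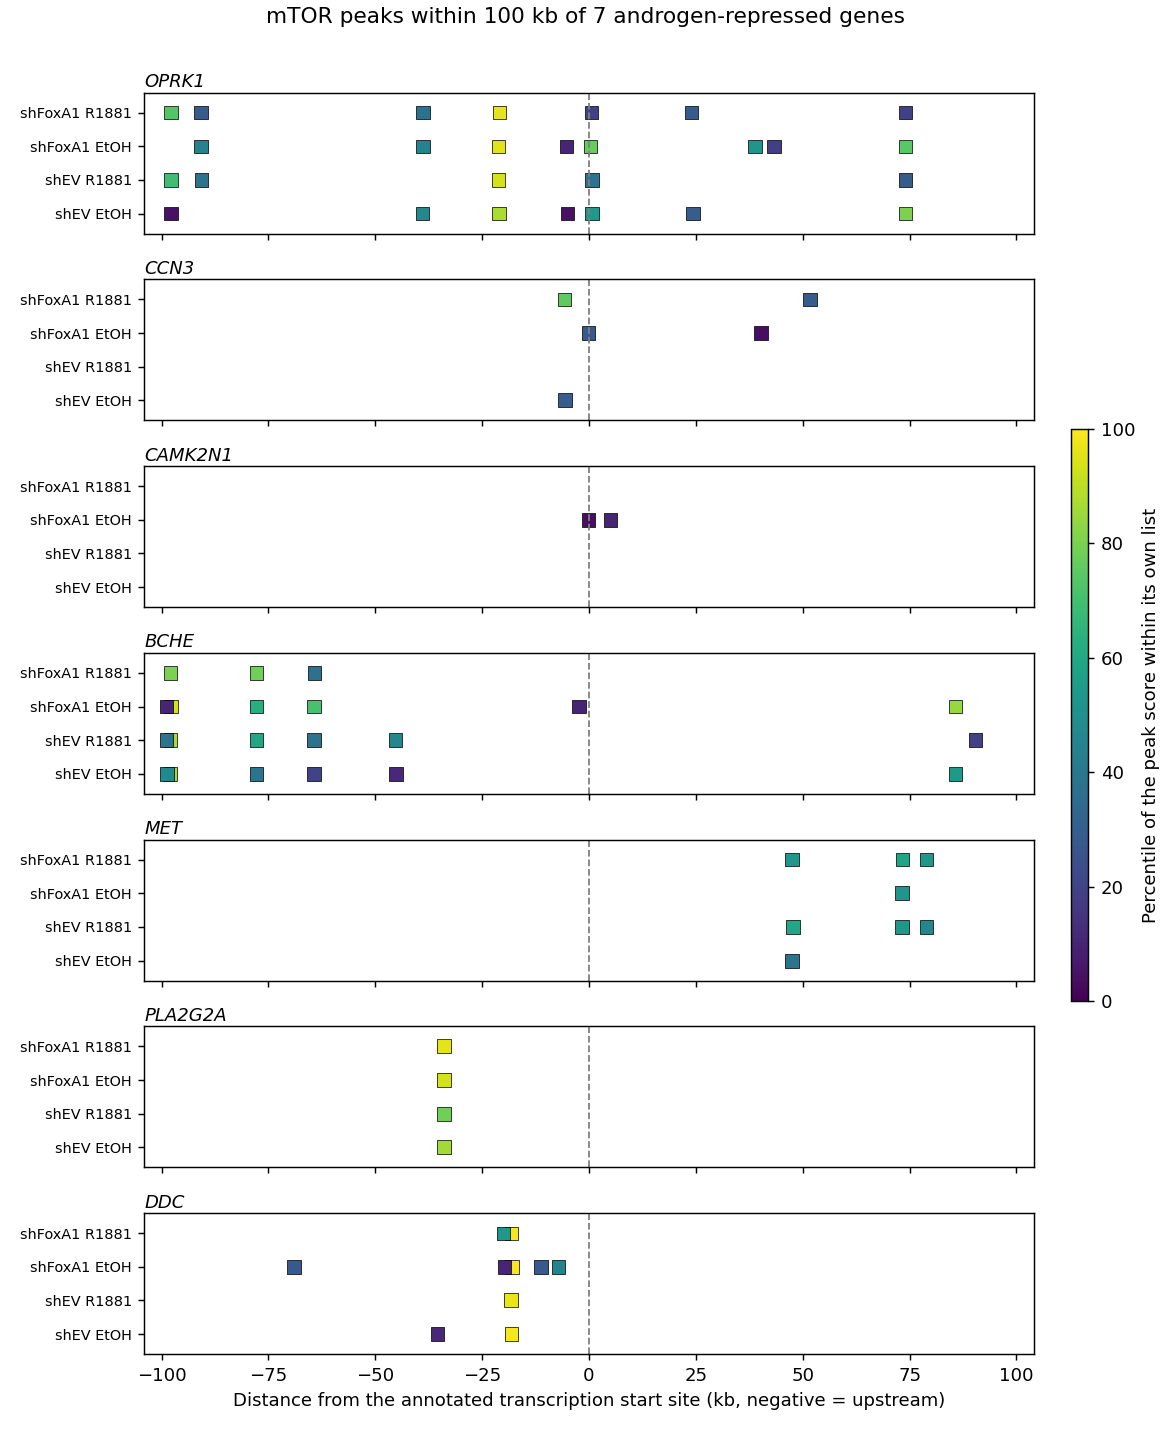
Each square is 1 mTOR peak, placed by its distance from the annotated TSS in kb (horizontal axis) in 1 of the 4 libraries (rows) for each gene (panels), and coloured by the percentile of its score within its own list. The DDC region at -18.1 kb and the OPRK1 region at -21.1 kb are bright in every row, the MET peaks all lie inside the gene, and squares about 1 to 2 kb apart overlap at BCHE (-97.8 and -98.8 kb) and at DDC (-18.1 and -19.9 kb).

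Merged over the lists, the peaks of the 7 genes formed 34 regions. Of these 8, or 23.5%, had a peak in all 4 lists, against 19.0% of the 61118 regions of the whole series. They were 3 at OPRK1, 3 at BCHE, 1 at DDC and 1 at PLA2G2A. A further 10 regions, 29.4%, were called in shFoxA1 EtOH alone, against 14.7% of all regions, and they included the CAMK2N1 and CCN3 promoters. Their scores ran from 21 to 66, none above the median of that list, 66. Only 1 region, at CCN3, was called in shFoxA1 R1881 alone (2.94%, against 19.7% of all regions), 1 in shEV R1881 alone (2.94%, against 7.23%) and 1 in shEV EtOH alone (2.94%, against 6.53%).

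**Figure D3:**
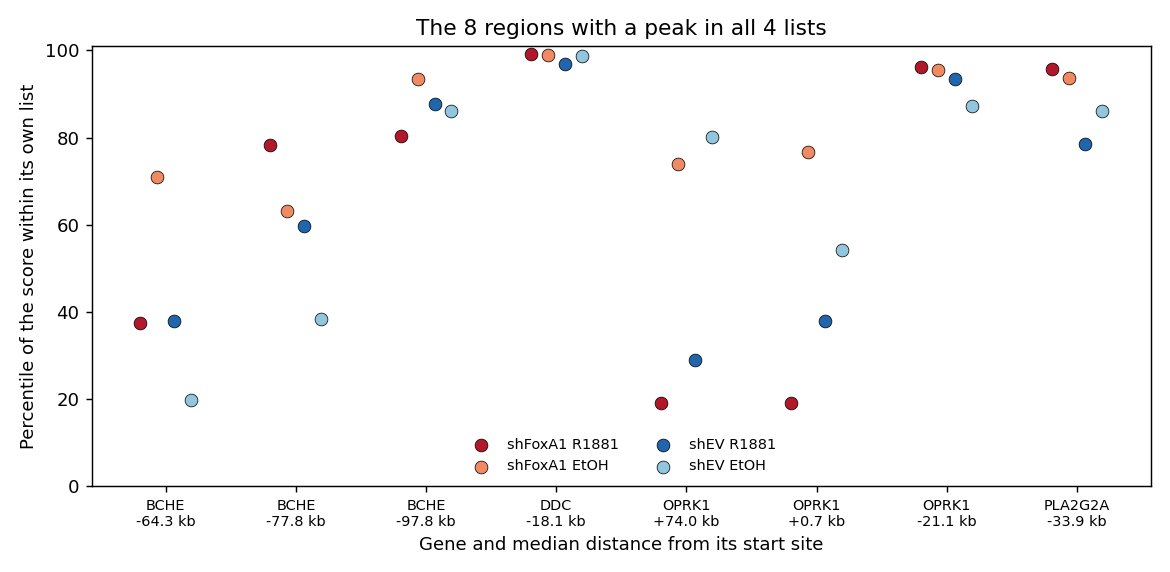
Percentile of the peak score within its own list (vertical axis) for the 8 regions of the 7 genes with a peak in all 4 libraries (horizontal axis, with the median distance from the TSS); each point is 1 library. The DDC region lies above percentile 96 in every library, while the OPRK1 regions at +74.0 and +0.7 kb reach from 19.2 to 80.2 and from 19.2 to 76.6.

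The sequence class under the peaks is also only described, as the genes were chosen with earlier results of these data known. Of the 77 peaks 66, or 85.7%, were annotated to repeats, against 55.7% of the 71254 peaks within 100 kb of any coding gene. The L1 family alone took 45 of the 77 (58.4%, against 26.4%), and its younger primate subfamilies L1PA2 to L1PA7 and L1HS took 35 (45.5%, against 10.1%). Retroviral long terminal repeats and their internal parts took 20 (26.0%, against 15.6%). Promoters held 2 (2.60%, against 16.5%) and introns 11 (14.3%, against 41.9%). The same site is counted in up to 4 lists. By region, 28 of 34 were in repeats, 21 of them L1, and no such share was computed for all regions. OPRK1 and BCHE held 8 of the repeat regions each. How well reads map to such repeats was not assessed.

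The peaks stood far from the start sites, at a median of 45.3 kb against 13.7 kb for all coding genes, and were lower in G and C, with a median of 40.6% against 47.1%. OPRK1, CCN3 and BCHE, 3 of the 7 genes, have no other coding gene within 100 kb; the nearest coding gene is 282 kb from OPRK1, 133 kb from CCN3 and 576 kb from BCHE. The deposited annotation assigns a peak by the nearest annotated promoter. The part of isolation in the counts and in the repeat share was not tested.

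**Figure D4:**
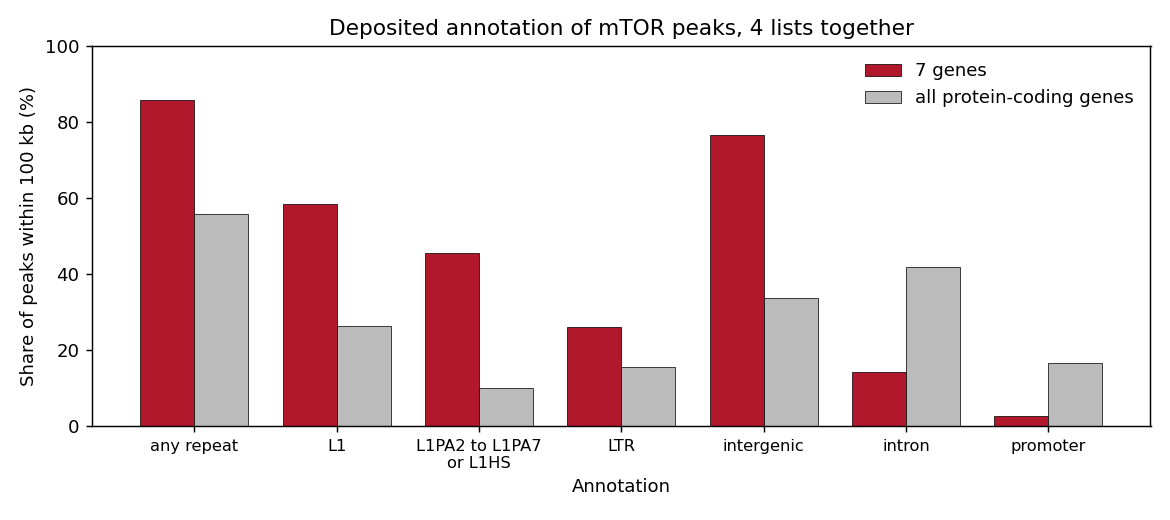
Share of mTOR peaks within 100 kb (vertical axis, percent) in each deposited annotation class (horizontal axis) for the 7 genes and for all protein-coding genes, with the 4 lists together; repeat classes overlap with the location classes. Repeats hold 85.7% of the members' peaks and 55.7% of those of all coding genes, and promoters 2.60% and 16.5%.

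The first comparison asks where mTOR peaks at these genes come and go with androgen. A gained peak is one of the R1881 list that no EtOH peak overlaps by at least 1 bp, and a lost peak one of the EtOH list that no R1881 peak overlaps. With the FoxA1 hairpin 6 of 18 peaks were gained (33.3%, against 44.5% of the whole shFoxA1 R1881 list and 44% of its peaks within 100 kb of coding genes). Lost were 13 of 25 (52.0%, against 37.5% of the whole shFoxA1 EtOH list and 35.9% of its peaks near coding genes). The Wilson 95% intervals of these shares ran from 16.3 to 56.3% for the gained and from 33.5 to 70.0% for the lost peaks. They cover counting error only and treat peaks of the same gene as independent, so they do not test a difference from the lists. The lost peaks were 3 at OPRK1, 3 at BCHE, 3 at DDC, 2 at CCN3 and 2 at CAMK2N1. The gained peaks were 2 each at OPRK1, MET and CCN3. PLA2G2A had none of either kind.

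Most lost peaks had low scores. Their median score was 34, against 108 for the shared member peaks and 66 for the whole shFoxA1 EtOH list. The exception with the highest score was the LTR1E peak of BCHE, at 166. With only the peaks at or above each list's median score, 5 of 11 were gained, against 39.1% of the list so limited. Lost were 5 of 11, against 32.4%. The net of gained minus lost peaks was 0, against -7 over all scores, but these nets are not counted alike. After the limit, a peak whose only partner scored below the median counts as gained or lost. Lost this way were the BCHE L1PA5 peak (EtOH score 103, R1881 score 49) and the OPRK1 peaks at 74.0 kb (113, 34) and 0.654 kb (123, 34). Gained this way was the DDC peak at -19.9 kb (EtOH score 27, R1881 score 65).

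With the empty vector 4 of 16 peaks were gained (25.0%, interval 10.2 to 49.5, against 45% of the whole shEV R1881 list and 46.5% near coding genes). Lost were 6 of 18 (33.3%, 16.3 to 56.3, against 42.6% of the whole shEV EtOH list and 42.9% near coding genes). The same limit holds for these intervals. MET gained 2 peaks, and OPRK1 and BCHE 1 each. OPRK1 lost 3, and BCHE, CCN3 and DDC 1 each, with a median score of 42 for the lost peaks against 58 for the whole list. Within 50 kb of the TSS, 0 of 6 peaks were gained (46.1% of all shEV R1881 peaks that near to coding genes) and 5 of 11 lost (against 42.5% of the shEV EtOH peaks). With both lists first limited to scores at or above their medians, 6 of 10 were gained (against 40.1% of the list so limited) and 5 of 9 lost (against 36.7%), a net of 1. In such lists a peak also counts as gained or lost where the other list holds only a lower-scoring peak. Gained this way were the MET L1PA2 peak (R1881 score 76, EtOH score 50) and the OPRK1 PABL_A peak (95, 20). So were the BCHE peaks at L1PA7 (76, 50) and L1PA3 (58, 27). Lost this way were the OPRK1 peaks at 74.0 kb (EtOH score 136, R1881 score 42) and 0.654 kb (67, 50). The BCHE L1PA6 peak at -98.8 kb (58, 50) was also lost this way.

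The 2 androgen pairs share no library, and MET was the member that gained 2 peaks and lost none in each. Only its L1PA7 peak was gained in both pairs. The other gained MET peak was at L1PA2 with the FoxA1 hairpin and at L1PA5 with the empty vector. In all, 13 other coding genes had the same 4 peak counts as MET. OPRK1 lost more than it gained in both pairs (a net of -1 with the FoxA1 hairpin and -2 with the empty vector), and so did DDC (-3 and -1). BCHE had a net of -3 with the FoxA1 hairpin and 0 with the empty vector, CCN3 0 and -1, and CAMK2N1 -2 and 0. The difference between the hairpins was not tested. No share of all coding genes with a net of the same sign in both pairs was computed, so these signs are only described.

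**Figure D5:**
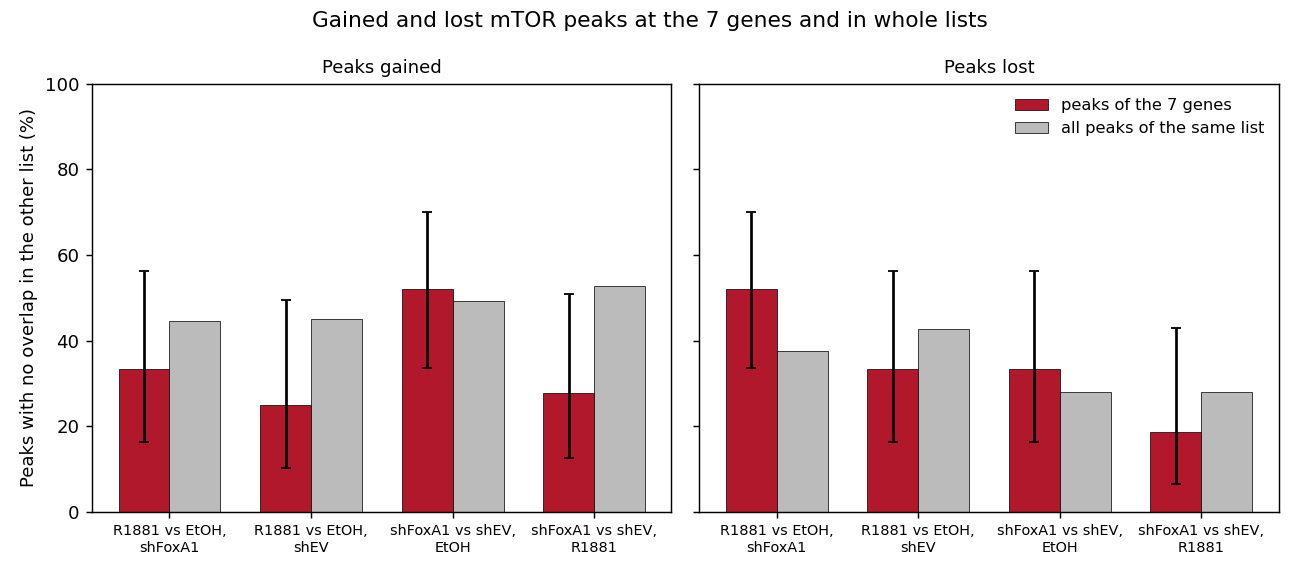
Share of peaks with no overlap in the other list of a pair (vertical axis, percent) for the 4 pairs (horizontal axis), gained at left and lost at right; red bars are the peaks of the 7 genes with Wilson 95% intervals (counting error only), grey bars all peaks of the same list. In 7 of the 8 cases the interval reaches the grey bar, and the peaks gained with the FoxA1 hairpin in R1881 stand at 27.8% against 52.8%. The intervals treat peaks of the same gene as independent, and the genes were chosen with earlier results known. They therefore test no difference from the lists.

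The second comparison sets the FoxA1 hairpin against the empty vector; its pairs use the same 4 libraries as the androgen pairs, so the values are not independent of those above. In R1881, 5 of 18 peaks were gained with the hairpin (27.8%, interval 12.5 to 50.9, against 52.8% of the whole shFoxA1 R1881 list and 54.2% near coding genes). Lost were 3 of 16 (18.8%, 6.59 to 43.0, against 27.9% of the whole shEV R1881 list and 26.6% near coding genes). The gained peaks were 2 at OPRK1, 2 at CCN3 and 1 at DDC, and all 3 lost peaks were at BCHE. In EtOH, 13 of 25 were gained (52.0%, 33.5 to 70.0, against 49.2% of the whole shFoxA1 EtOH list and 50.9% near coding genes). Lost were 6 of 18 (33.3%, 16.3 to 56.3, against 28% of the whole shEV EtOH list and 26.6% near coding genes). The EtOH shares are near those of the lists. DDC gained 4 of its 5 peaks in this pair, OPRK1 3, CAMK2N1 and CCN3 2 each, and MET and BCHE 1 each. The 6 lost peaks were 2 at OPRK1 and 1 each at DDC, CCN3, MET and BCHE, so MET and BCHE had a net of 0. Scores of the gained peaks had a median of 42, those of the shared ones 118. The gain at CAMK2N1 and CCN3 in EtOH included their promoters, which had no peak in the other 3 lists.

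Other genes known to be lowered by androgen in prostate cells had other counts in these lists. AKR1C3, HSD17B6, ACKR3, SOX2, FOLH1, CLU and CDH2 together had 22 peaks in shFoxA1 R1881, 12 in shFoxA1 EtOH, 13 in shEV R1881 and 11 in shEV EtOH, a mean per gene of 3.14, 1.71, 1.86 and 1.57. With R1881 and the FoxA1 hairpin 12 of 22 were gained (54.5%, against 44.5% of the whole list) and 2 of 12 lost (16.7%, against 37.5%). The net was 10, against -7 at the members. With R1881 and the empty vector 6 of 13 were gained (46.2%, against 45% of the whole list) and 4 of 11 lost (36.4%, against 42.6%). The net was 2, against -2 at the members, and these shares are near those of the lists. The difference between these genes and the members was not tested. FOLH1, which encodes prostate-specific membrane antigen, had 6 peaks in shFoxA1 R1881, 3 in shFoxA1 EtOH, 4 in shEV R1881 and 2 in shEV EtOH. AKR1C3, an androgen-forming reductase, had 4, 2, 4 and 3, and HSD17B6, a hydroxysteroid dehydrogenase, 4, 3, 2 and 2.

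Relatives and partners of the members (other opioid receptors, CCN proteins, phospholipases, calmodulin kinases, ligands and enzymes), 23 genes, had fewer peaks per gene than the members. They had 24 peaks at 12 genes in shFoxA1 R1881, 19 at 11 in shFoxA1 EtOH, 19 at 12 in shEV R1881 and 12 at 6 in shEV EtOH. That is 52.2, 47.8, 52.2 and 26.1% of these genes, against 54.4, 51.7, 40.6 and 39.8% of all coding genes. Their means per gene were 1.04, 0.826, 0.826 and 0.522, against 1.15, 1.005, 0.723 and 0.678 over all coding genes. The matricellular genes led: CCN2 had 4, 2, 4 and 2 peaks, CCN4 3, 3, 2 and 3, and CCN1 3, 2, 3 and 1. The opioid receptor gene OPRD1 and the dynorphin precursor gene PDYN each had 2, 1, 1 and 2. The MET ligand gene HGF had a peak in shFoxA1 EtOH alone and the MET relative MST1R none. PLA2G2D, PLA2G2E, PLA2G2F and PLA2G5, which lie beside PLA2G2A, had no peak assigned in any list; the PLA2G2A region near PLA2G5 is described above.

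The pattern most like that of OPRK1, by the summed absolute difference of the 4 peak counts, was that of STXBP5L, a gene of a syntaxin-binding protein, with the same counts of 7, 8, 5 and 7. ZNF695, a zinc-finger gene, had 7, 8, 5 and 6, and TSNARE1 7, 8, 6 and 7, each with a summed difference of 1. This likeness rests on 4 libraries, and 4 genes in all came within a difference of 1.

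The limit of 100 kb fell in gaps between regions. Just inside it lay the BCHE and OPRK1 peaks at 97.8 to 98.8 kb, with scores of 20 to 322. Just outside it lay OPRK1 peaks at 109 kb downstream, scored 58 in shFoxA1 EtOH and 42 in shEV EtOH, and at 115 kb, scored 83 in shFoxA1 R1881, 144 in shFoxA1 EtOH, 114 in shEV R1881 and 67 in shEV EtOH. At 116 kb on the upstream side of OPRK1 a retroviral region had 102 in shFoxA1 R1881, 235 in shFoxA1 EtOH, 85 in shEV R1881 and 136 in shEV EtOH.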

How the data were processed

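Each of the 4 mTOR libraries has 1 deposited peak list, in the layout of HOMER's peak annotation per the file headers, with peaks called per library. Per the submitters' processing notes the build was hg38, and HOMER 4.11.1, MACS2, deepTools 3.5.0, BWA 0.7.12, Trimmomatic 0.36 and Picard 2.0.1 were used; no source used here gives their roles, the caller's control and threshold or how duplicates were handled. The deposited peak score is the authors' value and was used only within its list. The authors' fraction of G and C per peak, a property of the reference sequence, was printed as a percentage. Coordinates count from 1. Annotation, nearest gene and distance to the TSS are as deposited.

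With Python 3.11.15, pandas 2.3.3 and SciPy 1.17.1, peaks on chromosomes 1 to 22, X and Y were overlapped (at least 1 bp) and merged into regions; the procedure was tested on simulated data. All 7 members matched the RefSeq table (GRCh38.p14). Shares carry Wilson 95% intervals. Named in full were each member's highest-scoring peaks, regions in all 4 lists, regions in both lists of a treatment and neither of the other, the 3 relatives and 3 other androgen-lowered genes with most peaks, and the 3 genes most like the member with most peaks; further peaks were named after their values were seen. The PLA2G2A promoter sequences fall outside that rule. Of the other androgen-lowered genes 1 is not reported here. Alternatives varied the distance, the overlap, the score limit, the start site and the use of repeats. Read depth per library is unknown, so no floor for an absent peak is given. The members and lists were chosen with earlier results of these data known.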

Additional observations from a re-analysis of the deposited data

Results flagged for a closer look

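Of the 34 regions, 2 had a peak only in R1881 with the FoxA1 hairpin and only in EtOH with the empty vector, and the difference was not tested. The CCN3 region in an L1PA5 repeat at -5.66 kb had a peak with a score of 112 in shFoxA1 R1881 and none in shFoxA1 EtOH, but none in shEV R1881 and a peak with 42 in shEV EtOH. The OPRK1 region in the 3' UTR had a peak with a score of 41 in shFoxA1 R1881 and none in shFoxA1 EtOH, but none in shEV R1881 and a peak with 42 in shEV EtOH. In shFoxA1 R1881 and shEV EtOH the CCN3 peaks stood at percentiles 75.7 and 29.2, and the OPRK1 peaks at 28.4 and 29.2. Over the whole series 2.12% of regions had this presence in shFoxA1 R1881 and shEV EtOH alone, against 5.88% of the member regions. The mirror presence, in shFoxA1 EtOH and shEV R1881 alone, was that of 1.79% of all regions and of 0 member regions.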

How the results depend on the processing

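Values are given for shFoxA1 R1881, shFoxA1 EtOH, shEV R1881 and shEV EtOH, then as net gained minus lost peaks for R1881 with the FoxA1 hairpin, R1881 with the empty vector, the hairpin in R1881 and the hairpin in EtOH, then as regions in all 4 lists; with the settings of the report they were 18, 25, 16 and 18 peaks, nets of -7, -2, 2 and 7, and 8 regions. Within 50 kb they were 9, 16, 6 and 11, nets of -7, -5, 3 and 5, and 4 regions. Within 10 kb they were 2, 7, 1 and 3, nets of -5, -2, 1 and 4, and 1 region. With scores at or above each list's median they were 11, 11, 10 and 9, nets of 0, 1, 1 and 2, and 4 regions. The R1881 net with the empty vector turned round there, from 4 gained and 6 lost to 6 gained and 5 lost. Score limits were set on both lists before the overlap. A peak whose only partner fell below the limit therefore counts as gained or lost, unlike in the settings of the report. With each list limited to its top 10000 scores they were 5, 7, 5 and 5, nets of -2, 0, 0 and 2, and 4 regions. Without repeat-annotated peaks they were 3, 5, 1 and 2, nets of -2, -1, 2 and 3, and 1 region. These settings use fewer peaks by construction. With an overlap of 50% of the shorter peak the nets were those of the report, and with peaks within 1000 bp counted as shared they were -6, -2, 3 and 6. Counting every peak within 100 kb of the RefSeq start gave 25, 32, 20 and 22. No paired analysis was possible because each group is 1 library. The unknown depth of the libraries limits every absence of a peak.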

Other observations

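Beyond 100 kb, peaks assigned to the members were found at BCHE and OPRK1 and at none of the other 5 genes. BCHE had 6 in shFoxA1 R1881, 11 in shFoxA1 EtOH, 5 in shEV R1881 and 12 in shEV EtOH, the farthest 518 kb from the TSS. OPRK1 had 3, 6, 3 and 5, up to 144 kb away. In both hairpins, for both genes, the R1881 list held fewer of these distant peaks than the EtOH list; this was not tested. Together they had 9, 17, 8 and 17, while all coding genes had 4396, 4031, 3117 and 3170 peaks beyond 100 kb in the same order of lists. The BCHE peaks nearest to the limit lay in a MER52A repeat 117 kb downstream, scored 371, 600, 157 and 301 in the 4 lists in the same order, and in an L1PB1 repeat at -117 kb, scored 122, 415, 34 and 215.

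Within 100 kb of the DDC start, 7 peaks in shFoxA1 R1881, 8 in shFoxA1 EtOH, 3 in shEV R1881 and 4 in shEV EtOH were called under any gene name, and 2, 5, 1 and 2 of them were assigned to DDC; the rest went to GRB10, FIGNL1 and DDC-AS1.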
